A study of Homo sapiens with 24 samples.

Results

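The genes described here are 10 members of the transforming growth factor beta (TGF-beta), activin and bone morphogenetic protein (BMP) pathway, most of them known both as components of the pathway and as genes it regulates. They are the ligand genes TGFB1, TGFB2 and INHBA, the pseudoreceptor gene BAMBI, the signal transducer gene SMAD3, the inhibitory SMAD genes SMAD6 and SMAD7, the corepressor gene SKIL, and the target genes ID1 and ID3. Members were taken by symbol: the platform annotation gives 95 of the 352859 probe sets of the array to them, and they make up 10 of the 22260 genes with a value. All 10 passed the filter on low values and were among the 11764 genes tested. AC16 cells, a proliferating human line made by fusing cells of adult ventricular tissue with transformed fibroblasts, were synchronized for 2 h with 100 nM dexamethasone, a glucocorticoid that aligns circadian clocks in culture, and all groups share this pulse. Digoxin, a cardiac glycoside that blocks the sodium potassium pump, or vehicle was then given, and total RNA was profiled on 24 Human Gene 2.0 ST arrays, 3 for each of 8 groups. The groups were untreated cells at T0, cells at T4 with vehicle, 0.5 µM or 5 µM digoxin, untreated cells at T16, and cells at T20 with vehicle, 0.5 µM or 5 µM digoxin. What the vehicle was is not stated in the labels. The sample labels put both T4 and T20 at 4 h after treatment, whereas the growth protocol counts 4, 16 and 20 h from treatment, so a longer exposure and a later time after synchronization cannot be told apart at T20. The labels do not state whether the 3 arrays of each group come from independent cultures, and the p-values therefore rest on a spread between arrays that could be purely technical.

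TGF-beta and activin ligands bind pairs of receptor kinases that phosphorylate SMAD2 and SMAD3, while BMP ligands signal to SMAD1, SMAD5 and SMAD9, and both kinds of SMAD enter the nucleus with SMAD4. The pathway switches on its own brakes: SMAD6 and SMAD7 block receptors and SMADs, and SKIL holds SMAD target genes off. BAMBI, a receptor-like protein without a kinase, hinders signalling by the working receptors. ID1 and ID3, inhibitors of helix-loop-helix transcription factors, are known as direct targets of BMP signals. In the heart the pathway is known for its part in fibrosis and growth.

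All values are log2 gene values made from the deposited values after another quantile normalization between arrays. The deposited values reached 19.93. That is above what a 16-bit scanner can give, so a difference of 1 is not read as a doubling, and levels are compared between groups for 1 gene and never between genes. A difference is given with its standard error (SE) from limma, fitted to all 24 arrays, and a gene passed at a Benjamini-Hochberg adjusted p under 0.05 over all genes tested. Arrays of 1 group correlated at 0.991 to 0.995 across genes, and the number of arrays set a median SE of 0.139. Only 2 of 20 cardiomyocyte markers passed the filter on low values, TNNC1 and GATA4, while MYH6, MYH7, TNNT2, TNNI3 and the other defining genes did not. Of 12 fibroblast markers 11 passed it. Since arrays were scaled to one another, all differences are relative to the other probe sets. Set against the 24 poly-A control probe sets, spiked in as RNA, the median of all genes lay 0.38 lower with 5 µM digoxin than with vehicle at T4 (-0.38) and 0.82 lower at T20 (-0.82). At 0.5 µM the same medians were -0.27 at T4 and -0.42 at T20. The 18 hybridization control probe sets shifted the same way as the poly-A controls in these comparisons. At 5 µM they shifted by 0.057 at T4, against 0.36 for the poly-A controls, and by 0.36 at T20, against 0.81. At 0.5 µM the shifts were 0.084 against 0.30 at T4 and 0.18 against 0.44 at T20. For T20 vehicle over T16 they were -0.25 against -0.52. How much of the poly-A shift reflects RNA content was not tested. On that scale 3.3% of the genes called at 5 µM and T4 were higher, against 41.6% on the main scale, and 1.0% at T20, against 49.3%. At 0.5 µM these shares were 7.1% at T4, against 53.4%, and 2.3% at T20, against 55.5%. With arrays centred on their median gene 5 µM gave shares of 53.2% (T4) and 64.3% (T20), while 0.5 µM gave 68.1% (T4) and 68.4% (T20). Without digoxin the share of higher genes against the poly-A controls was 13.2% for T16 over T0, against 47.2% on the main scale, 72.5% for T4 vehicle over T0, against 49.0%, and 84.0% for T20 over T4 vehicle, against 47.3%. In bulk RNA, fewer cells of a type and less RNA per cell cannot be told apart.

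The stretches of genome just upstream of 5 genes that passed under digoxin are shown first, without that of INHBA, which also passed. They are the 250 bases before the RefSeq start of each gene (build GRCh38.p14), 5′ to 3′ on the gene's strand, in lower case. All 10 genes matched the RefSeq table, with 16 windows in all. The capitals mark matches to GGCGCC, a GC-rich SMAD motif, TGACGTCA, the cyclic AMP response element, and CACGTG, an E-box. TGACTCA, the AP-1 motif, and GTCTAGAC, a palindromic SMAD element, were searched too, all on both strands. BAMBI lies on the plus strand at chr10:28677271-28677520, ID1 on the plus strand at chr20:31605039-31605288, ID3 on the minus strand at chr1:23559502-23559751, TGFB2 on the plus strand at chr1:218345086-218345335 and SKIL on the plus strand at chr3:170357465-170357714.
BAMBI: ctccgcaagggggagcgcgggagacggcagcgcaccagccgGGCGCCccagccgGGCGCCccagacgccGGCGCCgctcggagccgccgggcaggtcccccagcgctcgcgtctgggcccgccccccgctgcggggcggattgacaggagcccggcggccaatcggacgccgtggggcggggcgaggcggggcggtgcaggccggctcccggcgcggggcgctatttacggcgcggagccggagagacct
ID1: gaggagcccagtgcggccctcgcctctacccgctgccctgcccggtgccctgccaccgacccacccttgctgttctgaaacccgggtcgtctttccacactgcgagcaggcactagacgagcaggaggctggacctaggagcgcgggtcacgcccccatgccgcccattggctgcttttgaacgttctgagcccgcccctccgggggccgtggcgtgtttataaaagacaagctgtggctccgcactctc
ID3: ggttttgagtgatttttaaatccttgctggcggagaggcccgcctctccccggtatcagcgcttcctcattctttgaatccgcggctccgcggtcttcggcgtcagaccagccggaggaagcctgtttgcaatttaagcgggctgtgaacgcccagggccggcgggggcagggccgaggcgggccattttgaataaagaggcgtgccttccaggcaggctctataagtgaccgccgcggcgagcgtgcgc
TGFB2: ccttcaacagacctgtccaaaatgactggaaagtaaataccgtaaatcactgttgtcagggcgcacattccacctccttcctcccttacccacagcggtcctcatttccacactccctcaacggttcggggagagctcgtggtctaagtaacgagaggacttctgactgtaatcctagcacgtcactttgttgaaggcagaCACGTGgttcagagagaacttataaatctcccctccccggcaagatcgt
SKIL: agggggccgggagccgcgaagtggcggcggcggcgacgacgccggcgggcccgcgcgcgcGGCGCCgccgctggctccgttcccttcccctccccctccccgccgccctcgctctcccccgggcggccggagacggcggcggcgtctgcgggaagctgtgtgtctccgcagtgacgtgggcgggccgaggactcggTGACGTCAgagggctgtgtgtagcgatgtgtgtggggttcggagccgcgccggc

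The BAMBI window held 3 copies of GGCGCC, the first of them 209 to 204 bases before the start. The SKIL window held 1 copy of GGCGCC, 190 to 185 bases before the start, and TGACGTCA at 54 to 47 bases. TGFB2 held CACGTG at 49 to 44 bases. Of all 35116 windows of this length, 16.4% held GGCGCC, 1.65% held TGACGTCA and 6.35% held CACGTG. The windows of ID1, ID3, TGFB1, INHBA and SMAD7 held none of the 5 motifs. SMAD6 was the only one of the 10 genes with GTCTAGAC, 12 to 5 bases before its start, a motif in 0.182% of all windows. SMAD3, with 5 windows, held GGCGCC and CACGTG in its first window and TGACTCA, found in 4.20% of all windows, in another. The BAMBI window was 81.2% G and C and the ID1 window 66.0%, against a median of 58.0% over all windows. These matches describe the letters of the windows, and binding was not measured.

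The calls under digoxin are named here by gene, and the counts of each comparison follow with the shares of all genes. TGFB2 rose and ID1 fell at both doses and both times, SKIL rose at 5 µM at both times, and BAMBI fell at both doses at T20. INHBA rose and ID3 fell in the single comparison of 5 µM digoxin with vehicle at T20. TGFB1, SMAD3, SMAD6 and SMAD7 passed in none of the 4 comparisons of digoxin with vehicle. Both doses at a time share their vehicle arrays, so their differences are not independent of each other.

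At T4, 2 of the 10 genes rose with 5 µM digoxin and 1 fell, where 9.18% of all genes tested were higher and 12.9% lower. At 0.5 µM and T4, 1 gene rose and 1 fell, where 5.21% of all genes were higher and 4.55% lower. With 5 µM at T20, 3 of the 10 were among the genes that rose and 3 among those that fell, against 12.9% and 13.2% of all genes. For 0.5 µM at T20 the counts were 1 higher and 2 lower, against 5.98% and 4.79% of all genes. The median difference of the 10 genes was -0.029 at 5 µM and T4, against -0.0099 for all genes, 0.023 at 0.5 µM and T4, against 0.015, -0.056 at 5 µM and T20, against -0.0056, and 0.12 at 0.5 µM and T20, against 0.015. Against the poly-A controls 1 of the 10 was higher and 5 were lower at 5 µM and T4, where 1.05% of all genes tested on that scale were higher and 30.9% lower. At 5 µM and T20 none was higher and 7 were lower, where 0.884% of all genes were higher and 83.9% lower.

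**Figure D1:**
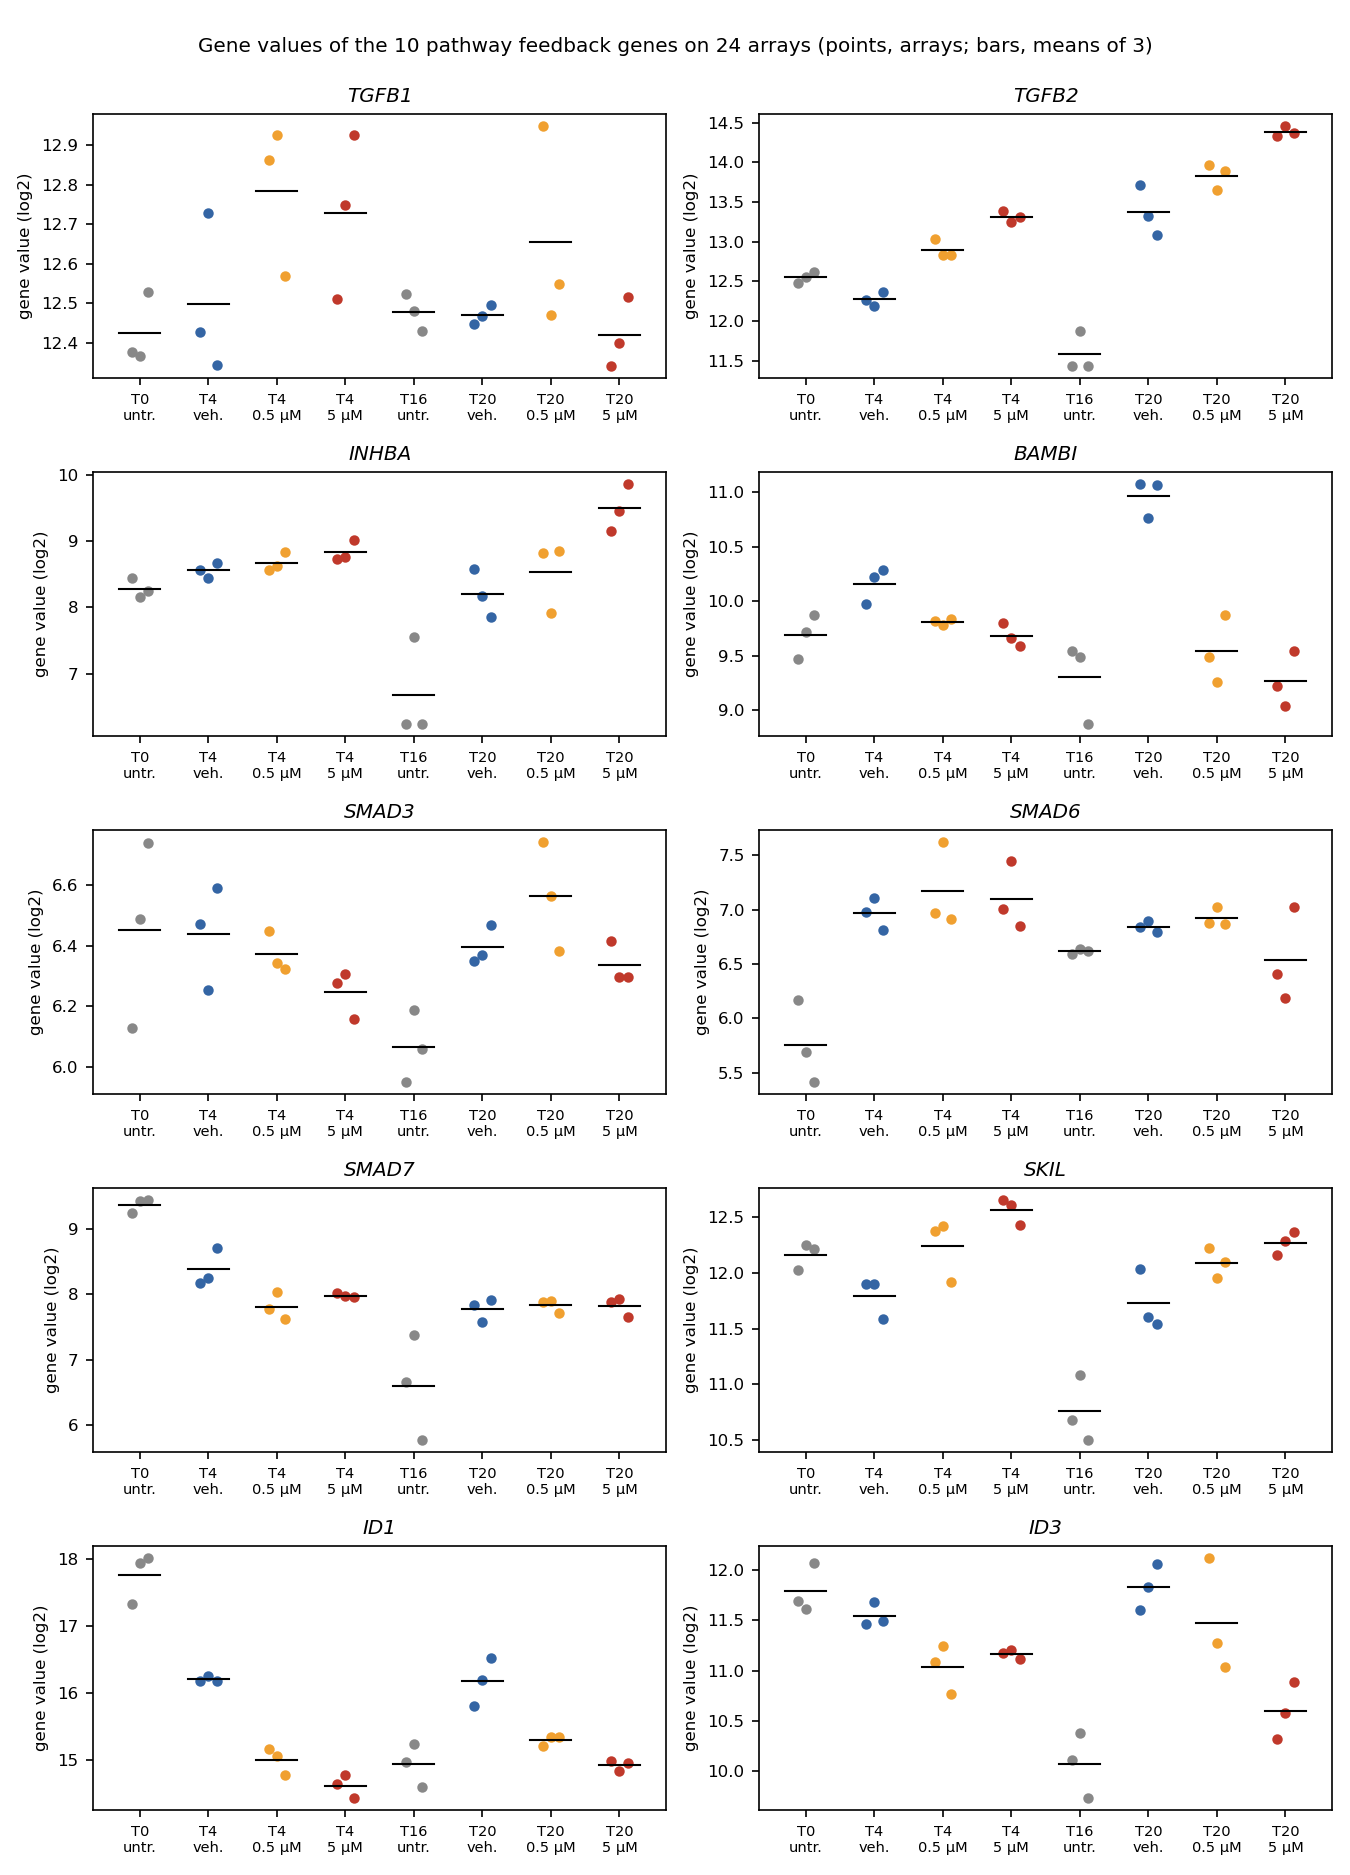
Gene values (y axis, log2, a scale of its own in each panel) of the 10 genes on 24 arrays, by group (x axis). Points are arrays and bars are the means of 3. At T20 the BAMBI points of both digoxin groups lie at 9.87 or below and those of the vehicle group at 10.77 or above. The TGFB2 points climb with dose at both times, with 1 vehicle array above 1 array of 0.5 µM at T20.

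Among the ligands, TGFB2, a secreted TGF-beta isoform prominent in heart development, had values of 12.26, 12.19 and 12.36 with vehicle at T4, 13.03, 12.84 and 12.83 with 0.5 µM digoxin, and 13.39, 13.25 and 13.30 with 5 µM. The 3 groups did not overlap. It rose by 0.63 ± 0.14 at 0.5 µM (adjusted p = 0.00516) and by 1.04 ± 0.14 at 5 µM (adjusted p = 1.75e-05), and all 11 of its probe sets were higher in both comparisons. Against the poly-A controls the difference at 5 µM was 0.69 and passed (adjusted p = 0.017), and that at 0.5 µM was 0.36 and did not (adjusted p = 0.273). At T20 it had values of 13.71, 13.33 and 13.08 with vehicle, 13.96, 13.65 and 13.89 with 0.5 µM digoxin, and 14.33, 14.46 and 14.36 with 5 µM. The 5 µM arrays lay above all others, while the arrays of 0.5 µM and vehicle overlapped. TGFB2 rose by 1.01 ± 0.14 at 5 µM (adjusted p = 1.74e-05), and against the poly-A controls this difference was 0.14 and did not pass (adjusted p = 0.527). Its rise of 0.46 ± 0.14 at 0.5 µM and T20 (adjusted p = 0.0333) did not pass without any 1 of 4 arrays, with adjusted p up to 0.174. Scaled to the poly-A controls it was 0.015 (adjusted p = 0.954), and it also did not pass with the values as deposited (adjusted p = 0.0526), the mean over probe sets (adjusted p = 0.0923), no filter (adjusted p = 0.0812) or only the compared groups in the fit (adjusted p = 0.193).

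INHBA encodes the inhibin beta A chain, which as a dimer is activin A. At T20 its values were 9.16, 9.46 and 9.86 with 5 µM digoxin, against 8.59, 8.17 and 7.85 with vehicle, and every 5 µM array lay above every vehicle array. It rose by 1.29 ± 0.29 (adjusted p = 0.00293), with all 7 probe sets higher, by 0.37 to 1.93. Against the poly-A controls the difference was 0.49 and did not pass (adjusted p = 0.152), nor did it with the median over probe sets (1.26, adjusted p = 0.101). At 0.5 µM and T20 its values of 8.83, 7.92 and 8.86 overlapped those of vehicle (0.33 ± 0.29, adjusted p = 0.54). At T4 the values were 8.57, 8.44 and 8.68 with vehicle, 8.57, 8.62 and 8.84 with 0.5 µM and 8.74, 8.76 and 9.01 with 5 µM. No difference from vehicle passed at that time, at 0.28 ± 0.29 for 5 µM (adjusted p = 0.562).

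TGFB1 encodes the TGF-beta isoform most often studied in fibrosis. Its values lay between 12.34 and 12.95 on all 24 arrays, and the digoxin and vehicle groups overlapped in all 4 comparisons. The largest difference was 0.29 ± 0.13 at 0.5 µM and T4 (adjusted p = 0.186), where all 9 probe sets were higher. At 5 µM it was 0.23 ± 0.13 at T4 (adjusted p = 0.234) and -0.052 ± 0.13 at T20 (adjusted p = 0.81). TGFB1 was lower at 5 µM and T20 against the poly-A controls (-0.88, adjusted p = 0.000461).

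BAMBI had values of 9.22, 9.04 and 9.54 with 5 µM digoxin at T20, against 11.07, 10.77 and 11.06 with vehicle. The groups were well apart, with no overlap. It fell by 1.70 ± 0.18 (-1.70, adjusted p = 8.74e-07), and its 8 probe sets were all lower, with differences from -2.07 to -0.86. With 0.5 µM digoxin at T20 its values were 9.49, 9.26 and 9.87, again all below vehicle, with a difference of -1.43 ± 0.18 (adjusted p = 2.5e-05). At T4 the values were 9.98, 10.22 and 10.28 with vehicle, 9.82, 9.78 and 9.83 with 0.5 µM, and 9.80, 9.66 and 9.58 with 5 µM. The vehicle arrays lay above the arrays of either dose, and neither difference passed. The difference was -0.48 ± 0.18 at 5 µM (adjusted p = 0.0607) and -0.35 ± 0.18 at 0.5 µM (adjusted p = 0.246). Under 7 of the other settings tried, the 5 µM difference at T4 did pass, the poly-A scale among them (-0.85, adjusted p = 0.00528).

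**Figure D2:**
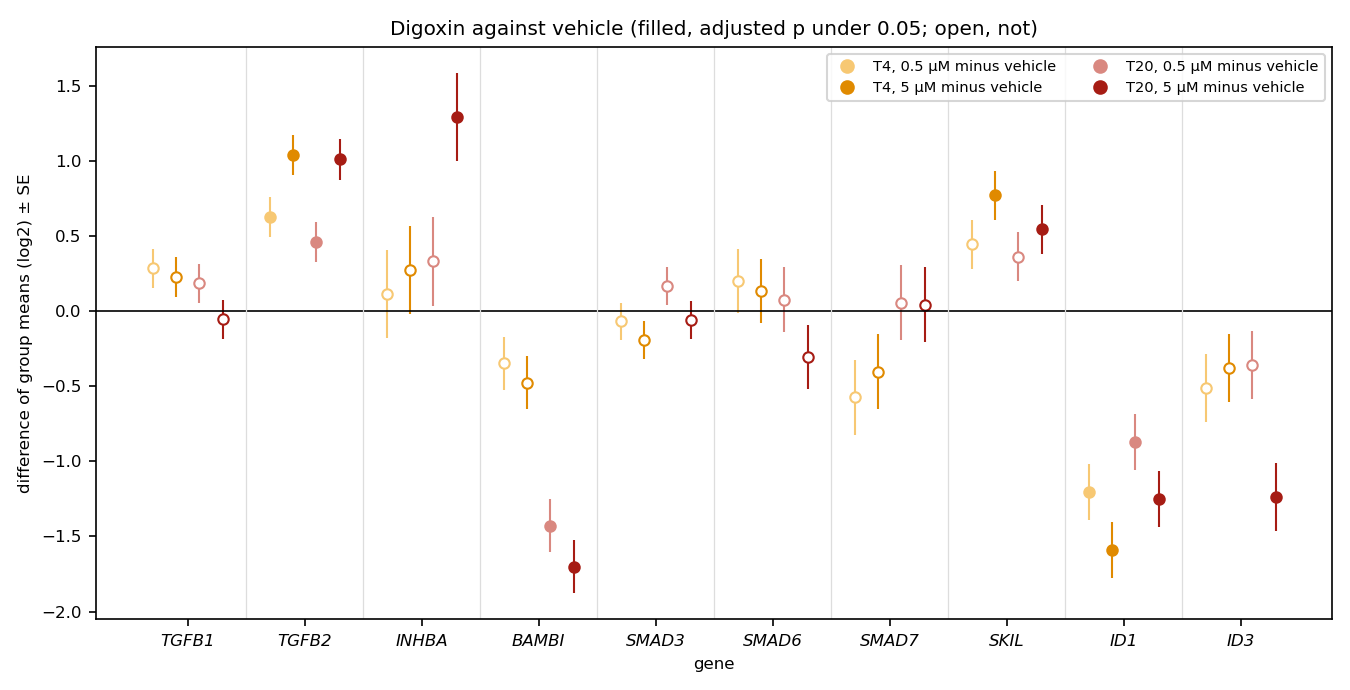
Difference of digoxin from vehicle (y axis, log2 ± SE) for each of the 10 genes (x axis) at 2 doses and 2 times, colours as in the key. Filled points passed at an adjusted p under 0.05 and open points did not. ID1 is below 0 in all 4 comparisons, from -1.59 to -0.87, and TGFB2 above 0 in all 4, from 0.46 to 1.04.

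SMAD3, the transducer of TGF-beta and activin signals, moved little. Its values ran from 6.16 to 6.31 with 5 µM digoxin at T4, against 6.25 to 6.59 with vehicle, and from 6.30 to 6.42 with 5 µM at T20, against 6.35 to 6.47 with vehicle. The groups overlapped in all 4 comparisons with vehicle, and its differences lay between -0.19 ± 0.13 (adjusted p = 0.312) and 0.17 ± 0.13 (adjusted p = 0.457). Its 19 probe sets disagreed, with differences from -2.13 to 1.61 at 5 µM and T4, so that the gene value averages over unlike probe sets. Both extremes came from probe sets with low means over all arrays (5.76 and 5.13). Those with means of 12.27 or more differed by -0.32 to 0.52. The group means of SMAD3, at 6.07 to 6.56, lay just above the filter value of 6.00. Against the poly-A controls SMAD3 was lower at 5 µM by 0.54 at T4 (-0.54, adjusted p = 0.0459) and by 0.86 at T20 (-0.86, adjusted p = 0.000796).

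SMAD6, the inhibitory SMAD known to act mainly on BMP signals, had values of 7.00, 7.45 and 6.85 with 5 µM digoxin at T4, against 6.98, 7.11 and 6.82 with vehicle. At T20 they were 6.40, 6.19 and 7.03 with 5 µM, against 6.84, 6.90 and 6.80 with vehicle. The groups overlapped at both times, and the differences were 0.13 ± 0.21 at T4 (adjusted p = 0.715) and -0.30 ± 0.21 at T20 (adjusted p = 0.317). The T20 difference of SMAD6 against the poly-A controls was -1.11 and passed (adjusted p = 0.000618). SMAD7, the inhibitory SMAD that acts on TGF-beta, activin and BMP receptors, had values of 8.18, 8.26 and 8.71 with vehicle at T4, 7.77, 8.04 and 7.63 with 0.5 µM digoxin, and 8.02, 7.97 and 7.96 with 5 µM. Both doses lay below vehicle without overlap, and neither difference passed, at -0.40 ± 0.25 for 5 µM (adjusted p = 0.282) and -0.57 ± 0.25 for 0.5 µM (adjusted p = 0.165). Both passed against the poly-A controls, at -0.80 for 5 µM (adjusted p = 0.0161) and -0.87 for 0.5 µM (adjusted p = 0.0303), and 5 µM passed with the mean over probe sets (-0.53, adjusted p = 0.0447). At T20 all 9 arrays lay between 7.58 and 7.93, with differences of 0.045 ± 0.25 at 5 µM (adjusted p = 0.919) and 0.058 ± 0.25 at 0.5 µM (adjusted p = 0.922). Against the poly-A controls the T20 difference of SMAD7 at 5 µM turned to -0.74 (adjusted p = 0.0082).

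SKIL encodes SnoN, a corepressor that binds SMADs and is degraded when TGF-beta signals. At T4 its values were 11.90, 11.90 and 11.58 with vehicle, 12.38, 12.42 and 11.92 with 0.5 µM digoxin, and 12.66, 12.62 and 12.43 with 5 µM. The 5 µM arrays lay above all arrays of the other groups, and the lowest array of 0.5 µM lay just above vehicle. SKIL rose by 0.77 ± 0.16 at 5 µM (adjusted p = 0.00178), with 13 of 14 probe sets higher, and its difference at 0.5 µM was 0.45 ± 0.16 (adjusted p = 0.0879). At T20 the values were 12.04, 11.61 and 11.54 with vehicle, 12.23, 11.95 and 12.10 with 0.5 µM and 12.16, 12.29 and 12.37 with 5 µM. It rose by 0.55 ± 0.16 at 5 µM (adjusted p = 0.0167), a call lost without any 1 of 3 arrays (adjusted p up to 0.0798) and turned to -0.26 against the poly-A controls (adjusted p = 0.257). The difference at 0.5 µM and T20 was 0.36 ± 0.16 (adjusted p = 0.166), with overlapping groups. At T4 the 5 µM call was also lost on the poly-A scale, at 0.40 (adjusted p = 0.154), and with the median over probe sets, at 0.56 (adjusted p = 0.167).

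ID1 had values of 16.17, 16.25 and 16.18 with vehicle at T4, 15.16, 15.05 and 14.77 with 0.5 µM digoxin and 14.63, 14.78 and 14.42 with 5 µM. Every digoxin array lay at least 1 unit below the lowest vehicle array. ID1 fell by 1.59 ± 0.19 at 5 µM (-1.59, adjusted p = 5.3e-06) and by 1.21 ± 0.19 at 0.5 µM (-1.21, adjusted p = 0.000294). At T20 the values were 15.80, 16.19 and 16.51 with vehicle, 15.20, 15.34 and 15.34 with 0.5 µM and 14.98, 14.83 and 14.94 with 5 µM. Both doses again lay below vehicle, with differences of -1.25 ± 0.19 at 5 µM (adjusted p = 5.47e-05) and -0.87 ± 0.19 at 0.5 µM (adjusted p = 0.00441). All 5 probe sets were lower in each of the 4 comparisons, and each of these calls was kept under all 17 other settings and left-out arrays.

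ID3 had values of 10.32, 10.58 and 10.88 with 5 µM digoxin at T20, against 11.60, 11.83 and 12.06 with vehicle, without overlap. It fell by 1.24 ± 0.23 (-1.24, adjusted p = 0.000468). All 6 probe sets were lower, by unlike amounts from -4.25 to -0.15. With 0.5 µM at T20 its values of 12.12, 11.27 and 11.04 spread over the whole range of the vehicle arrays, and the difference of -0.36 ± 0.23 did not pass (adjusted p = 0.368). Without the highest of these arrays it was -0.68 and passed (adjusted p = 0.0448), as it did against the poly-A controls (-0.77, adjusted p = 0.0385). At T4 the values were 11.46, 11.68 and 11.49 with vehicle, 11.09, 11.24 and 10.77 with 0.5 µM and 11.17, 11.21 and 11.12 with 5 µM. Both doses lay below vehicle without overlap and neither passed, at -0.51 ± 0.23 for 0.5 µM (adjusted p = 0.174) and -0.38 ± 0.23 for 5 µM (adjusted p = 0.264). The 5 µM difference passed with only the compared groups in the fit (adjusted p = 0.0336) and against the poly-A controls (-0.74, adjusted p = 0.0435).

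**Figure D3:**
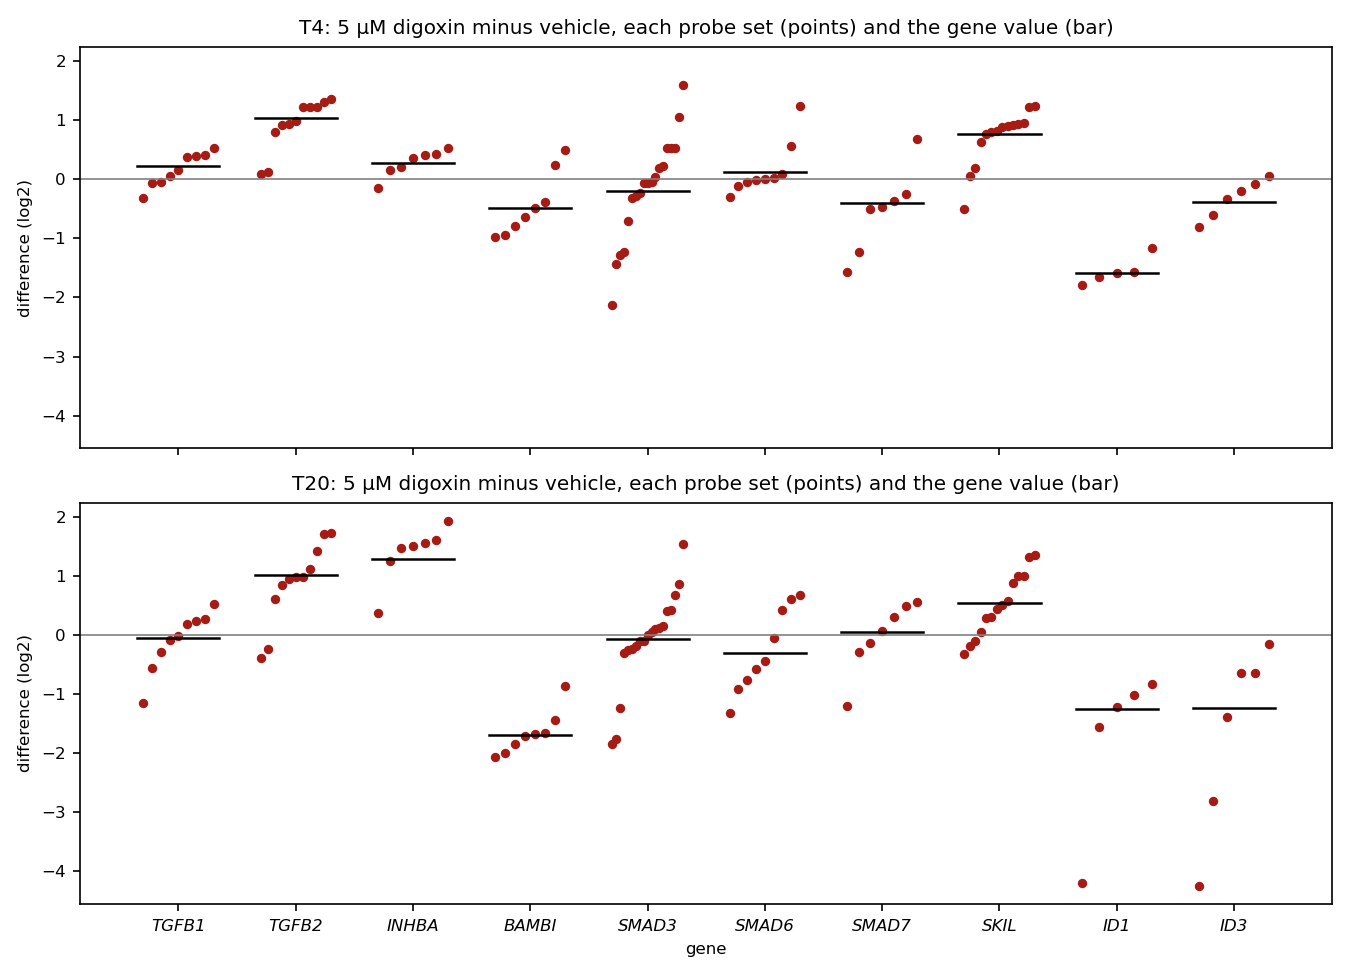
Difference of 5 µM digoxin from vehicle (y axis, log2) at T4 (upper panel) and T20 (lower panel) for each probe set (points, sorted) of the 10 genes (x axis), with the gene value as a bar. All 8 BAMBI points at T20 and all 5 ID1 points at both times lie below 0, whereas the 19 SMAD3 points lie on both sides of it.

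The doses were compared directly at each time. At T4 none of the 10 genes differed between 5 µM and 0.5 µM in limma. Of all genes, 0.136% were higher and 0.306% lower. An unadjusted p under 0.05 was seen for 1 of the 10, TGFB2 (0.41 ± 0.14, adjusted p = 0.197). It was also seen for 1390 of the 11764 genes tested. At T20, 1 gene was higher and 1 lower at 5 µM, against 1.22% and 1.23% of all genes. TGFB2 was higher at 5 µM than at 0.5 µM by 0.55 ± 0.14 (adjusted p = 0.0337) and ID3 was lower (-0.88 ± 0.23, adjusted p = 0.0446), in both cases without overlap. Each of these calls was lost under several settings, TGFB2 without any 1 of 5 arrays and ID3 without any 1 of 4. INHBA was 0.96 ± 0.29 higher at 5 µM (adjusted p = 0.0921), BAMBI -0.27 ± 0.18 (adjusted p = 0.474), ID1 -0.38 ± 0.19 (adjusted p = 0.319) and SKIL 0.18 ± 0.16 (adjusted p = 0.634).

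Whether the effect of digoxin differed between T20 and T4 was tested as a difference of differences. At 5 µM it passed for 1 of the 10 genes, lower, where 0.4% of all genes were higher and 0.17% lower. The gene was BAMBI, whose effect was more negative at T20 by 1.22 ± 0.25 (-1.22, adjusted p = 0.0269), in all 8 probe sets. The vehicle level of BAMBI also differed between these times, as given below with the times. The effects of INHBA (1.02 ± 0.42, adjusted p = 0.362) and ID3 (-0.86 ± 0.32, adjusted p = 0.302) did not pass. Both had an unadjusted p under 0.05. With BAMBI, 3 of the 10 genes had such a p, as did 1265 of the 11764 genes tested. For TGFB2 the difference between the effects was -0.029 ± 0.19 (adjusted p = 0.974) and for ID1 0.34 ± 0.26 (adjusted p = 0.695). At 0.5 µM limma called none of the 10 genes, where 0% of all genes were higher and 0.0085% lower. Only 1 of the 10, BAMBI, had an unadjusted p under 0.05 (-1.08 ± 0.25, adjusted p = 0.267). So did 661 of the 11764 genes tested.

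Without digoxin, most of the 10 genes stood low at T16. From T0 on, values were 12.48 to 12.62 at T0, 11.43 to 11.87 at T16 and 13.08 to 13.71 with vehicle at T20 for TGFB2, the T16 arrays lying below all other arrays of the series. SMAD7 ran from 9.25 to 9.45 at T0, from 5.76 to 7.38 at T16 and from 7.58 to 7.91 with vehicle at T20. SKIL ran from 12.03 to 12.25 at T0, from 10.50 to 11.09 at T16 and from 11.54 to 12.04 with vehicle at T20. In each of these 3 genes the T16 arrays were apart from both other groups. INHBA ran from 8.16 to 8.45 at T0, from 6.24 to 7.56 at T16 and from 7.85 to 8.59 with vehicle at T20, with the second T16 array at 7.56 and both others at 6.24. ID3 ran from 11.61 to 12.07 at T0, from 9.73 to 10.38 at T16 and from 11.60 to 12.06 with vehicle at T20, so the first and last of these times were alike in level. ID1 ran from 17.33 to 18.01 at T0, from 14.59 to 15.24 at T16 and from 15.80 to 16.51 with vehicle at T20, and it did not regain its T0 level. The second T16 array was the highest T16 array for each of the genes in this paragraph. It was so for SMAD3 and SMAD6 too, but not for BAMBI or TGFB1.

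Between T16 and T0, 7 of the 10 genes were lower and 1 higher, where 16.7% of all genes were lower and 14.9% higher. The falls were -2.83 ± 0.19 for ID1 (adjusted p = 9.83e-10), -2.78 ± 0.25 for SMAD7 (adjusted p = 8.36e-08), -1.72 ± 0.23 for ID3 (adjusted p = 1.05e-05) and -1.60 ± 0.29 for INHBA (adjusted p = 0.000344). SKIL fell by 1.41 ± 0.16 (-1.41, adjusted p = 1.92e-06) and TGFB2 by 0.97 ± 0.14 (-0.97, adjusted p = 1.93e-05). SMAD3 fell by 0.39 ± 0.13 (-0.39, adjusted p = 0.0241) with overlapping groups, a call lost without any 1 of 4 arrays. SMAD6 went the other way, with 6.59 to 6.64 at T16 against 5.41 to 6.17 at T0, and rose by 0.86 ± 0.21 (adjusted p = 0.00428). The median difference of the 10 genes was -1.19, against -0.0031 for all genes. With the median over probe sets the INHBA difference was -0.51 and did not pass (adjusted p = 0.536), and SMAD6 did not pass (0.84, adjusted p = 0.0786), nor against the poly-A controls (0.62, adjusted p = 0.0926). All 7 INHBA probe sets were lower. Those with means of 12.86 to 14.03 over all arrays differed by -2.97 to -2.11, and those with means of 4.92 to 8.50 by -1.70 to -0.18. Without the second T16 array the falls of INHBA (-2.04) and SMAD7 (-3.17) were larger, and the same counts of 8 and, for T20 vehicle against T16, 7 genes passed. Fibroblast markers moved in the same comparison: 8 of the 11 tested were higher at T16 than at T0 and none lower, with a mean marker value of 12.3 to 12.4 on the T16 arrays and 11.2 to 11.3 on the T0 arrays. Their part in the differences of the 10 genes was not tested.

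Between the T20 vehicle arrays and T16, 7 of the 10 genes were higher and none lower, where 11.3% of all genes were higher and 11.5% lower. Time and vehicle change together in this comparison and cannot be told apart. TGFB2 rose by 1.79 ± 0.14 (adjusted p = 3.46e-08), ID3 by 1.76 ± 0.23 (adjusted p = 1.97e-05) and BAMBI by 1.67 ± 0.18 (adjusted p = 2.26e-06), to 10.77 to 11.07 with vehicle at T20, against 8.87 to 9.54 at T16. INHBA rose by 1.52 ± 0.29 (adjusted p = 0.000947), ID1 by 1.24 ± 0.19 (adjusted p = 9.07e-05), SMAD7 by 1.18 ± 0.25 (adjusted p = 0.00203) and SKIL by 0.97 ± 0.16 (adjusted p = 0.000231). The call of INHBA was lost with the median over probe sets (1.17, adjusted p = 0.147) and that of SMAD7 with only the compared groups in the fit (adjusted p = 0.083). SMAD3 and SMAD6 did not pass, although their T20 vehicle arrays lay above all T16 arrays. The share of all genes without overlap was not computed. SMAD3 was 0.33 ± 0.13 higher (adjusted p = 0.065) and SMAD6 0.23 ± 0.21 (adjusted p = 0.487), and TGFB1 differed by -0.0065 ± 0.13 (adjusted p = 0.978). The median difference was 1.21, against -0.024 for all genes. Of the fibroblast markers, 2 of 11 were higher and 1 lower here, with a mean value of 12.2 to 12.5 on the T20 vehicle arrays. All 10 genes were higher in this comparison against the poly-A controls, where 42.9% of all genes tested on that scale were higher and 0.57% lower.

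**Figure D4:**
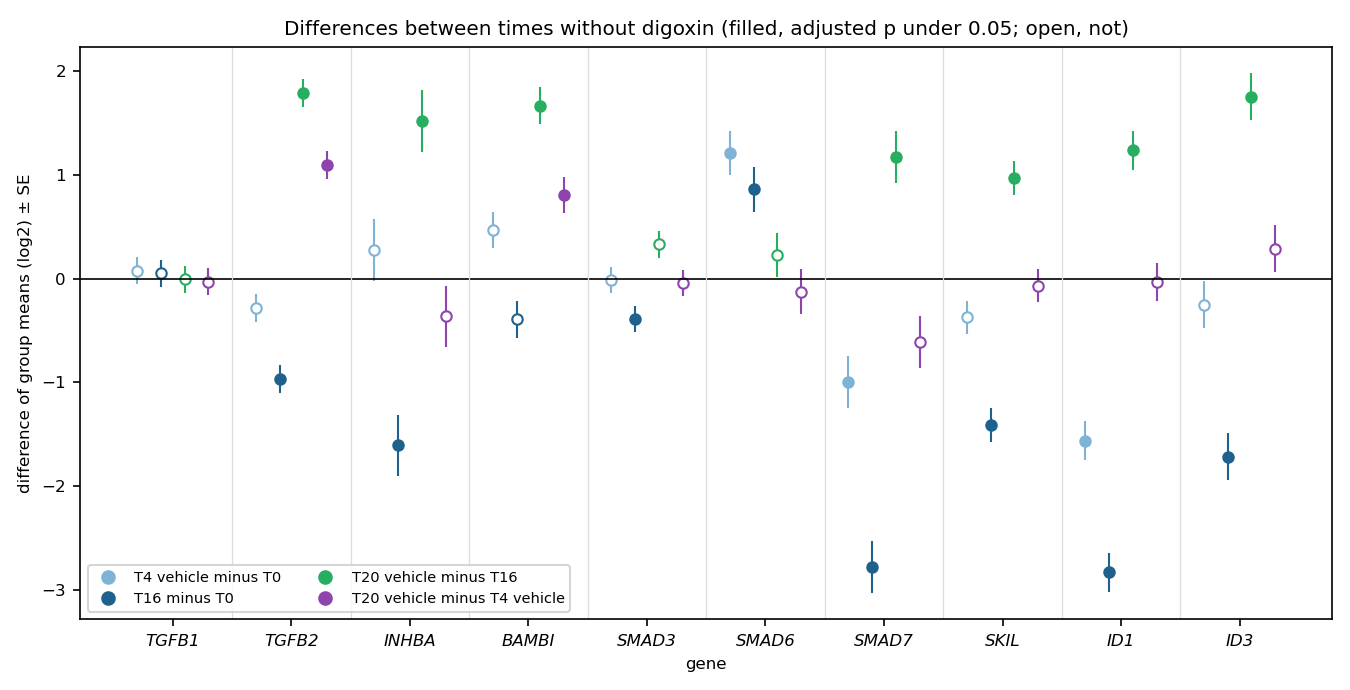
Difference between groups without digoxin (y axis, log2 ± SE) for each of the 10 genes (x axis) in 4 comparisons, colours as in the key, with filled points where the adjusted p was under 0.05. Between T16 and T0, 7 genes lie below 0 with filled points, and between T20 vehicle and T16, 7 lie above 0.

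With vehicle at T4, against untreated cells at T0, 1 of the 10 genes was higher and 2 were lower, where 8.59% of all genes were higher and 8.94% lower. Time and vehicle change together in this comparison too and cannot be told apart. SMAD6 had 6.98, 7.11 and 6.82 at T4, against 6.17, 5.69 and 5.41 at T0, and rose by 1.21 ± 0.21 (adjusted p = 0.000521). SMAD7 had 8.18, 8.26 and 8.71 at T4, against 9.25, 9.44 and 9.45 at T0, and fell by 1.00 ± 0.25 (adjusted p = 0.00883). The 2 inhibitory SMADs thus moved in opposite directions, with no overlap in either, and with the median over probe sets neither passed (SMAD6 0.94, adjusted p = 0.0844, and SMAD7 -0.84, adjusted p = 0.153). ID1 fell by 1.56 ± 0.19 (-1.56, adjusted p = 7.07e-06), to 16.17 to 16.25 at T4 against 17.33 to 18.01 at T0. Digoxin at T4 lay below even this lower vehicle level. With vehicle at T20, against vehicle at T4, 2 genes were higher and none lower, where 6.66% of all genes were higher and 7.42% lower. TGFB2 was higher by 1.10 ± 0.14 (adjusted p = 1.89e-05) and BAMBI by 0.81 ± 0.18 (adjusted p = 0.00441), so the vehicle level of both genes was higher at T20. Of the fibroblast markers tested, 8 of 11 were higher and none lower in the same comparison, with a mean value of 12.2 to 12.5 with vehicle at T20, against 11.3 to 11.5 at T4. Of the smooth muscle markers 2 of 4 were higher, with a mean value of 8.60 to 8.75 with vehicle at T20, against 8.11 to 8.28 at T4. The part of these markers in the differences was not tested. TGFB2 rose further under digoxin, and BAMBI with 5 µM digoxin stood at 9.04 to 9.54, within the range of 8.87 to 9.54 of untreated cells at T16.

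The order of the 8 group means differed between the genes. TGFB2 was lowest at T16 (11.58 ± 0.25, SD, n = 3) and highest with 5 µM digoxin at T20 (14.38 ± 0.063), a group above all others without overlap. INHBA had the same lowest and highest groups, at 6.68 ± 0.76 and 9.49 ± 0.35. BAMBI was highest with vehicle at T20 (10.97 ± 0.17), where no array of another group reached it, and its lowest groups, 5 µM digoxin at T20 (9.27 ± 0.26) and T16 (9.30 ± 0.37), did not differ beyond their spread. ID1 was highest at T0 (17.76 ± 0.38), and its lowest groups were 5 µM at T4 (14.61 ± 0.18), 5 µM at T20 (14.92 ± 0.079) and T16 (14.93 ± 0.32). The T16 arrays overlapped both of these digoxin groups, which did not overlap each other. SMAD7 was highest at T0 (9.38 ± 0.11) and lowest at T16 (6.60 ± 0.81), and the digoxin groups at both times and T20 vehicle lay close together, between 7.78 ± 0.17 and 7.98 ± 0.031. SKIL was highest with 5 µM digoxin at T4 (12.57 ± 0.12) and lowest at T16 (10.76 ± 0.30). ID3 was lowest at T16 (10.07 ± 0.33) and had T20 vehicle (11.83 ± 0.23) and T0 (11.79 ± 0.25) side by side at the top. SMAD6 was lowest at T0 (5.76 ± 0.38), and its other 7 groups spread from 6.54 ± 0.43 to 7.17 ± 0.39. TGFB1 varied least, with group means from 12.42 ± 0.089 to 12.79 ± 0.19, and SMAD3 ran from 6.07 ± 0.12 to 6.56 ± 0.18.

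For each gene, the 2 tested genes whose 8 group means correlated most with its own were noted, among genes that spanned at least 1 (log2). These correlations are over 8 groups of the same arrays and are given as a description. INHBA was most like FST (r = 0.978), which encodes follistatin, the secreted protein that traps activin, and MYO1E (r = 0.962). SMAD6 was most like SMAD9 (r = 0.973), another SMAD of the BMP branch, and HMGN2 (r = 0.929). ID1 was most like SNAI2 (r = 0.978), a zinc finger transcription factor also on the list of targets below, and HERPUD1 (r = 0.971). TGFB2 was most like the cyclin gene CCNE1 (r = 0.984) and CYP1B1 (r = 0.983), and SKIL like PPP1R15B (r = 0.988) and DGKE (r = 0.987). BAMBI was most like the 5S RNA pseudogene RNA5SP385 (r = 0.916), read by 1 probe set, and the BMP target ATOH8 (r = 0.890). For SMAD7 the closest were CCDC190 (r = 0.953) and TRAJ39 (r = 0.944, 1 probe set), and for ID3 NOPCHAP1 (r = 0.930) and SRSF6 (r = 0.927). TGFB1 (LYSMD1 at r = 0.914 and ZNF566 at 0.896) and SMAD3 (TMEM278 at r = 0.886 and TRIM74 at 0.885) varied little, so their closest genes are named only for completeness.

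The other genes of the pathway were counted from lists by role at 5 µM digoxin against vehicle. These counts stand against shares over all genes tested of 9.18% higher and 12.9% lower at T4, and 12.9% higher and 13.2% lower at T20, with medians of all genes of -0.0099 and -0.0056. Of 22 other ligand genes on the array only 4 passed the filter on low values. GDF15, a stress-induced distant member of the family, rose by 1.88 ± 0.20 at T4 (adjusted p = 1.86e-06) and 2.42 ± 0.20 at T20 (adjusted p = 4.84e-08). BMP4, a BMP ligand, fell by 1.01 ± 0.17 at T4 (-1.01, adjusted p = 0.000319) and 0.82 ± 0.17 at T20 (-0.82, adjusted p = 0.00162), and it was also lower at 0.5 µM and T20 (-0.68 ± 0.17, adjusted p = 0.0154). BMP1, a protease named with the BMPs though it is no BMP ligand, fell by 0.43 ± 0.15 (-0.43) and 0.72 ± 0.15 (-0.72). BMP4 ranged from 6.63 to 7.11 with 5 µM digoxin at T4, against 7.68 to 7.98 with vehicle, and from 6.92 to 7.29 at T20, against 7.83 to 8.07. The BMP4 groups did not overlap at either time.

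Of 15 receptor and coreceptor genes 11 were tested, and 5 were higher and 1 lower at T4, where 9.18% of all genes were higher and 12.9% lower, and 5 higher and 2 lower at T20, where 12.9% were higher and 13.2% lower. TGFBR1, the type I TGF-beta receptor, rose by 0.38 ± 0.09 at T4 and 0.48 ± 0.09 at T20, and ACVR2A, a type II activin receptor, by 0.82 ± 0.11 at T20 (adjusted p = 2.37e-05). NEO1, a receptor for repulsive guidance molecules that act as BMP coreceptors, rose by 0.37 ± 0.09 at T4 and 0.50 ± 0.09 at T20. ENG, the coreceptor endoglin, fell by 0.39 ± 0.13 at T4 (-0.39) and 0.84 ± 0.13 at T20 (-0.84, adjusted p = 7.66e-05). The median difference was 0.31 at T4, against -0.0099 for all genes, and 0.34 at T20, against -0.0056, but against the poly-A controls NEO1 at both times and TGFBR1 at T20 turned below 0. Among 18 extracellular regulators tested, 3 were higher and none lower at T4, and 4 higher and 1 lower at T20. FST rose by 0.46 ± 0.10 (adjusted p = 0.00378) at T4 and 0.75 ± 0.10 (adjusted p = 2.74e-05) at T20, turning to -0.043 on the poly-A scale at T20. It ranged from 11.94 to 12.16 with 5 µM at T20, against 11.23 to 11.39 with vehicle. NOG, the BMP antagonist noggin, rose by 0.80 ± 0.20 at T4 and 0.58 ± 0.20 at T20, turning to -0.22 on the poly-A scale at T20.

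Of the 4 other SMAD genes tested, SMAD4, the partner shared by both branches, fell by 0.29 ± 0.09 at T4 (-0.29, adjusted p = 0.0241) and 0.72 ± 0.09 at T20 (-0.72, adjusted p = 8.17e-06). Its values ran from 13.87 to 13.96 with 5 µM digoxin at T20, against 14.53 to 14.79 with vehicle. SMAD2 rose by 0.24 ± 0.08 and 0.41 ± 0.08 and turned below 0 at both times on the poly-A scale, and SMAD5 and SMAD9 did not pass. Of 18 nuclear and cytoplasmic regulators, 5 were higher and 1 lower at each time. SMURF1, a ubiquitin ligase that marks SMADs and receptors for degradation, rose by 1.00 ± 0.09 at T4 and 1.19 ± 0.09 at T20, and it rose at 0.5 µM as well, by 0.65 ± 0.09 at T4 (adjusted p = 0.000154) and 0.78 ± 0.09 at T20 (adjusted p = 1.67e-05). The ligase gene NEDD4L (0.36 ± 0.09 and 0.50 ± 0.09) and the phosphatase gene PPM1A (0.38 ± 0.10 and 0.57 ± 0.10) rose by less, and PELO fell (-0.57 ± 0.14 and -0.75 ± 0.14). SKI, the gene of the corepressor related to SKIL, rose by 0.51 ± 0.15 and 0.48 ± 0.15. On the poly-A scale NEDD4L turned below 0 at both times, and PPM1A and SKI at T20.

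Of 31 target genes on the array 22 were tested, and 7 were higher and 4 lower at T4, where 9.18% of all genes were higher and 12.9% lower, and 8 higher and 3 lower at T20, where 12.9% were higher and 13.2% lower. Those with the smallest adjusted p went both ways. IL11 (3.20 ± 0.25 and 3.68 ± 0.25), CCN2 (1.60 ± 0.17 and 4.01 ± 0.17), JUNB (1.79 ± 0.17 and 1.99 ± 0.17) and CCN1 (0.78 ± 0.12 and 1.44 ± 0.12) rose at T4 and T20, and CDKN2B, a cell cycle inhibitor gene, rose at T20 (1.48 ± 0.21). As background, these genes answer TGF-beta and many other signals. SNAI2 fell by 0.90 ± 0.10 at T4 (-0.90) and 0.72 ± 0.10 at T20 (-0.72), and ATOH8 fell at T20 (-1.37 ± 0.27, adjusted p = 0.000956). The median difference of the tested targets was 0.056 at T4, against -0.0099 for all genes, and 0.15 at T20, against -0.0056. Smooth muscle markers moved in the same comparisons, with 2 of 4 tested higher at T4, and 2 higher and 1 lower at T20. Of 11 fibroblast markers 3 were lower at T4 and none at T20. The lists share genes: ACTA2 and TAGLN are also on the target list, as are the fibroblast markers COL1A1 and COL1A2. The mean smooth muscle marker value was 8.33 to 8.62 with 5 µM digoxin at T4, against 8.11 to 8.28 with vehicle, and 8.65 to 8.96 at T20, against 8.60 to 8.75. Their part in these differences was not tested.

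**Figure D5:**
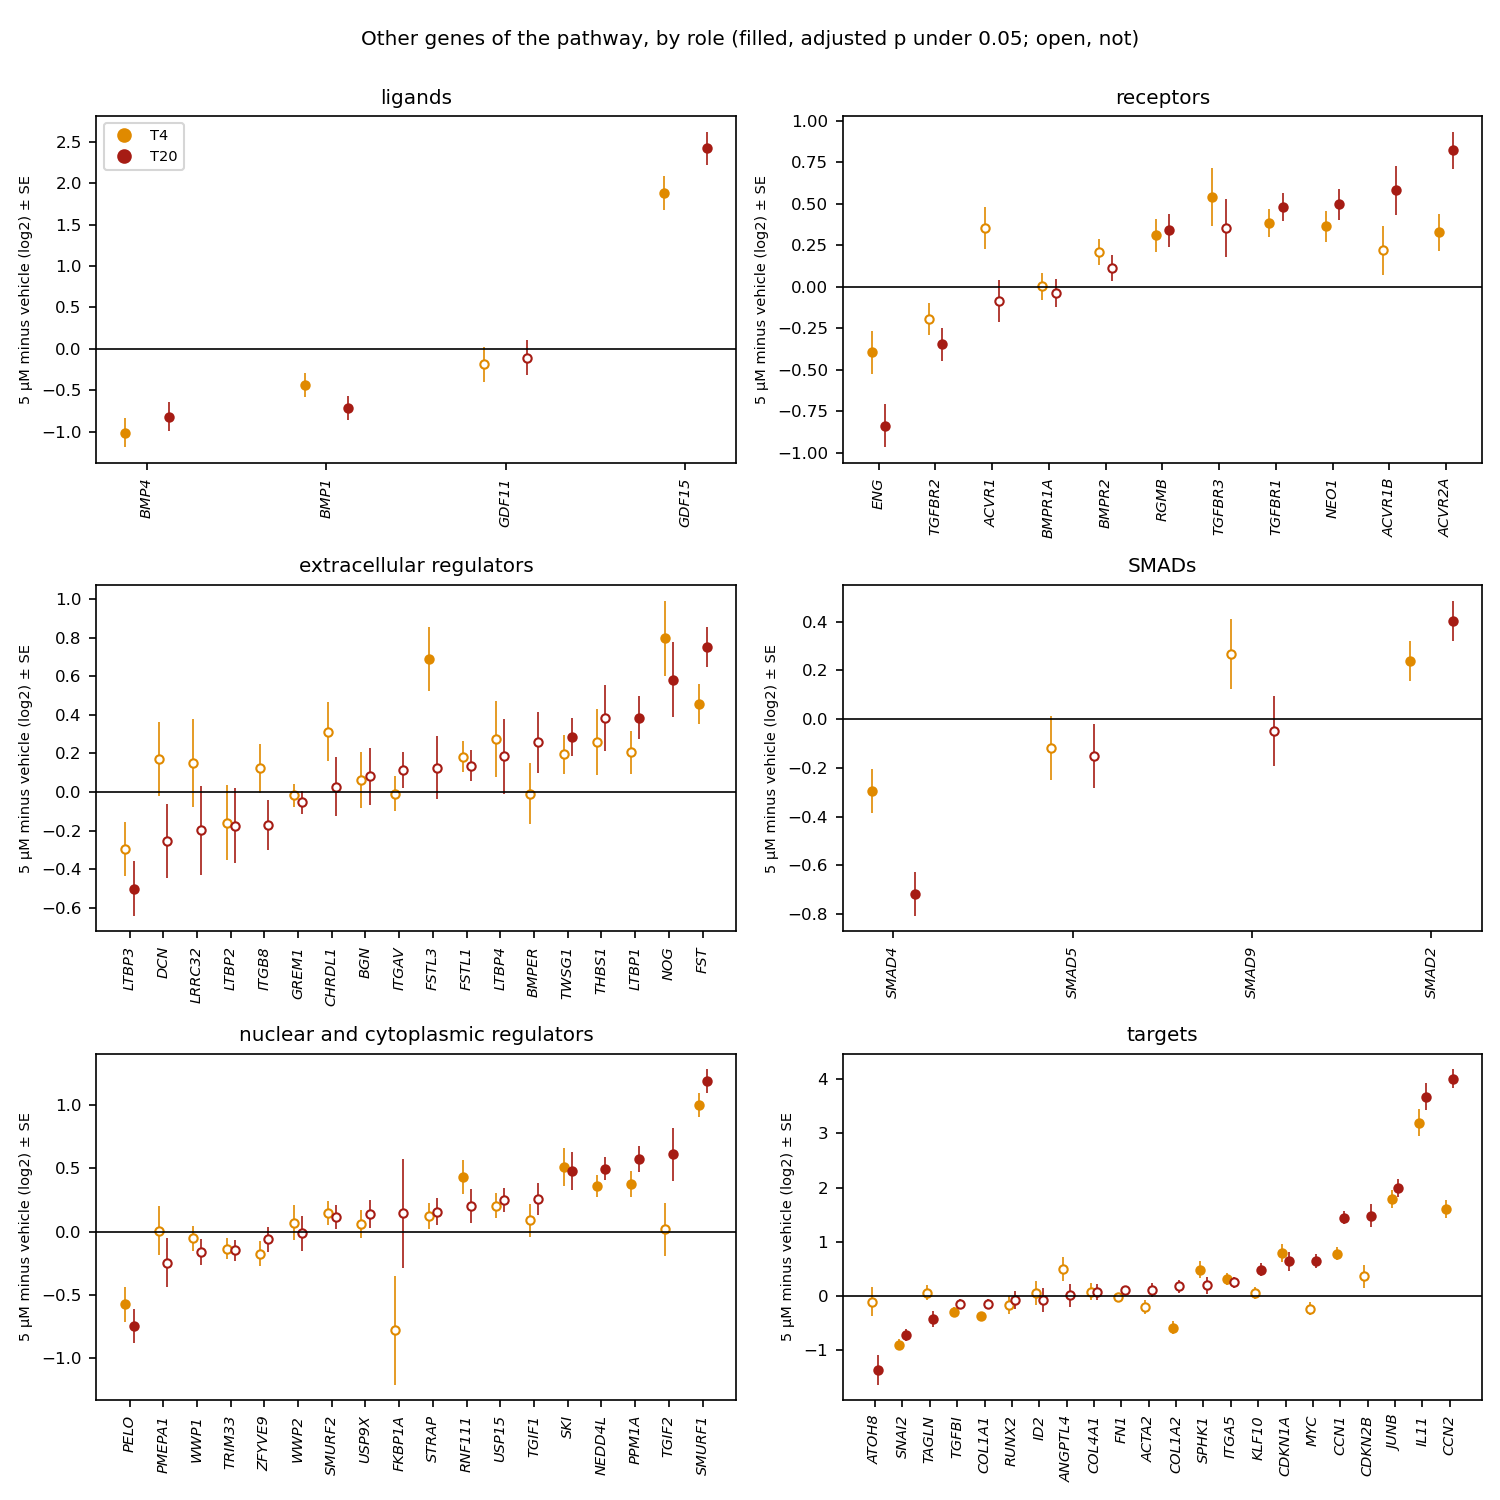
Difference of 5 µM digoxin from vehicle (y axis, log2 ± SE) at T4 and T20 for the other tested genes of the pathway (x axis), 1 panel for each role, ordered by the difference at T20. Filled points passed at an adjusted p under 0.05. CCN2 and IL11 lie highest among the targets, at 4.01 and 3.68 at T20, and SMAD4 lies lowest among the SMADs, at -0.72.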

How the data were processed

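RNA of 24 samples was measured on Human Gene 2.0 ST arrays. The authors deposited a table of log2 values for 352859 probe sets, made with the GIANT tools in Galaxy with robust multi-array averaging, per the series' design text. Their limma version is not given in the sources used here. Arrays were then quantile normalized once more, and the 259224 probe sets with exactly 1 symbol in the platform annotation were summarised per gene by median polish. Of the rest, 13116 name several genes and 80519 are not listed there, and 1726 symbols were updated through RefSeq.

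A gene was tested where its highest group mean reached the median of all gene values (6.00), which left 11764 of 22260. limma 3.58.1 in R 4.3.3 was fitted to all 24 arrays and 8 groups, with empirical Bayes moderation, two-sided tests and Benjamini-Hochberg adjustment within each of 12 comparisons. The fit was tested on simulated data. Depth has no meaning for arrays, and their number limits the precision. The members and gene lists were chosen with earlier results of these data known. Beside the members, the text names up to 5 genes per list by adjusted p at 5 µM and the 2 genes most like each member. The alternatives covered scaling, summarising, filtering, moderation, array weights, the samples in the fit, a replicate block and leaving out each array.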

Additional observations from a re-analysis of the deposited data

Results flagged for a closer look

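The effect of 5 µM digoxin on BAMBI differed between the times by a test of the difference itself. With 5 µM digoxin BAMBI stood at 9.27 ± 0.26 at T20, against 10.97 ± 0.17 with vehicle, and at 9.68 ± 0.11 at T4, against 10.16 ± 0.16 with vehicle (SD, n = 3 each). The T20 effect less that at T4 was -1.22 ± 0.25 in limma (adjusted p = 0.0269). The difference kept its direction when any 1 of the 12 arrays was left out, and it no longer passed in 9 of those 12 cases, with adjusted p from 0.0504 to 0.0804. It also missed the threshold with the values as deposited (-1.18), median-centred arrays (-1.19), the median over probe sets (-1.07) and no filter on low values (adjusted p = 0.0706). The vehicle level of BAMBI was itself higher at T20 than at T4, and its part in the difference was not tested.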

How the results depend on the processing

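Of 2136 recomputed values of the 10 genes, 2034 kept their direction and side of the threshold, 68 no longer passed, 31 newly passed and 3 reversed. Only 37 results passed in the report's setting, so many of the values kept belong to results that had not passed. Calls differed in how often they were kept. Between the doses at T20, TGFB2 was kept in 5 of 17 settings and ID3 in 8 of 17. The BAMBI difference between the times was kept in 10 of 23, and each ID1 call under digoxin in 17 of 17. The number of the 10 genes passing for 5 µM digoxin against vehicle at T4, 3 in the report, was 6 against the poly-A controls, 5 with the mean over probe sets and 5 with only the compared groups in the fit. For 5 µM against 0.5 µM at T20, 2 in the report, it was 0 with the values as deposited, with arrays centred on their median, without a filter and with only the compared groups. It was 1 with the median over probe sets and 1 with the replicate block. On the poly-A scale TGFB2 did not pass (0.13, adjusted p = 0.612). The number there was 6, with 0 higher and 6 lower, where 0.174% of all genes were higher and 16.3% lower. For the 5 µM effect at T20 minus that at T4, 1 in the report, it was 0 with the values as deposited, median-centred arrays, the median over probe sets and no filter. For T4 vehicle against T0, 3 in the report, it was 1 with the median over probe sets. Leaving out 1 array at a time gave 0 to 1 for the dose comparison at T20 and for the difference between the times at 5 µM, 5 to 6 for 5 µM at T20, 2 to 3 for 0.5 µM at either time and 7 to 8 for T16 against T0, and the counts of the report elsewhere.

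Scaling to the poly-A controls reversed SKIL (-0.26) and SMAD7 (-0.74) at 5 µM and T20 and TGFB1 between T20 vehicle and T16 (0.48). Among the other pathway genes it reversed, at 5 µM and T4, NEDD4L (-0.0015), ACVR2A (-0.056), NEO1 (-0.0068), RGMB (-0.064) and SMAD2 (-0.13). At 5 µM and T20 it reversed FST (-0.043), LTBP1 (-0.42), NOG (-0.22), TWSG1 (-0.53), FSTL3 (-0.65), NEDD4L (-0.30), PPM1A (-0.21), SKI (-0.37), TGFBR1 (-0.32), NEO1 (-0.31), ACVR1B (-0.19), RGMB (-0.48) and SMAD2 (-0.41). The median over probe sets reversed PPM1A at T20 (-0.045). The cause was not tested.

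Deviations of samples with the same replicate number correlated weakly. At 0.5 µM and T4 these correlations ran from 0.036 to 0.17, against -0.17 to 0.13 between samples with different numbers. Between T16 and T0 they ran from -0.063 to -0.032, against -0.036 to 0.076. The numbers were not taken to pair samples. With the replicate block the BAMBI difference between the times was -1.22 (adjusted p = 0.04).

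Over all alternatives, the number of all genes passing ran from 851 to 3868 for 5 µM at T4 (2594 in the report's setting), from 294 to 1546 for 0.5 µM at T4 (1148), from 1363 to 10263 for 5 µM at T20 (3067) and from 410 to 3809 for 0.5 µM at T20 (1267). It ran from 0 to 232 (52) and from 12 to 1989 (289) between the doses at T4 and T20, from 14 to 102 (67) and from 0 to 4 (1) for the difference between the times at 5 and 0.5 µM, from 680 to 2128 for T4 vehicle against T0 (2062), from 1628 to 3755 for T16 against T0 (3716), from 933 to 5253 for T20 vehicle against T16 (2683) and from 379 to 1924 for T20 against T4 vehicle (1656).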
